A study of Mus musculus with 7 samples.

Results

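Of 64579 FRA2 binding events mapped by chromatin immunoprecipitation and sequencing (ChIP-seq) in 2 mouse striatal cell lines, 21416 (33.2%, Wilson interval 32.8 to 33.5%) had neither a JUND nor a SOX2 event within 1000 bp. They are called FRA2-only sites here, meaning only that the JUND and SOX2 tables list nothing within that distance. An event is a single base position on mm9 with the reads assigned to it. The lines are STHdhQ7 (genotype HdhQ7/Q7) and STHdhQ111 (genotype HdhQ111/Q111), called Q7 and Q111. Both derive from striatal cells of embryos at day 14 on the strain 129SvEv/CD1, differ in the glutamine tract of both huntingtin alleles, and were used before passage 15. Both were grown at 33 °C and held at 39 °C for 2 days before each experiment, so the controls share that treatment. FRA2 and JUND were mapped in both lines and SOX2 in Q7, with IgG in each line as the antibody control. Each genotype is 1 line and each sample pools replicates 1 and 2, so every difference given here is between 2 pooled libraries, with no replicate error and no way to tell genotype from line or library. The tables hold binding positions and no expression, so the striatal label could not be checked against marker genes.

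FRA2, the product of Fosl2, is a FOS-family subunit of AP-1. FOS-family proteins do not form stable homodimers and bind DNA as heterodimers with a JUN-family partner (JUN, JUNB or JUND) at the TGANTCA element, so a FRA2 site without JUND can carry another JUN partner. JUND is the JUN-family member with the most constant expression in many cell types. SOX2 is an HMG-box factor of neural progenitors that often binds enhancers together with other factors.

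The FRA2-only sites carried few reads. The median site had 22 FRA2 reads in Q7 and 25 in Q111, with quartiles of 11 and 29 reads in Q7 and of 18 and 34 in Q111. Over both lines the median was 44 reads, against 64 for all FRA2 events, 85 for events with JUND but no SOX2, 41.05 for events with SOX2 but no JUND, and 102 for events with both. The sites made up 33.2% of events but held 14.2% of the Q7 reads and 17.0% of the Q111 reads in FRA2 events (473387 of 3340554 and 594546 of 3498922). Library sizes were not given in the sources used here, and these sums stand in for depth.

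The share of FRA2-only sites fell steeply with FRA2 reads. When all FRA2 events were split by reads over both lines into 4 groups of equal size, they made up 59.8% (59.0 to 60.6%) of the lowest group, with a median of 35 reads, then 48.2% and 22.8% of the middle groups. In the highest group, with a median of 199.5 reads, they made up 1.80% (1.61 to 2.02%), or 291 events. With 10 groups the share ran from 63.1% down to 0.124%, which is 8 events. Strong FRA2 binding without a listed JUND or SOX2 event nearby was therefore rare in these tables.

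**Figure D1:**
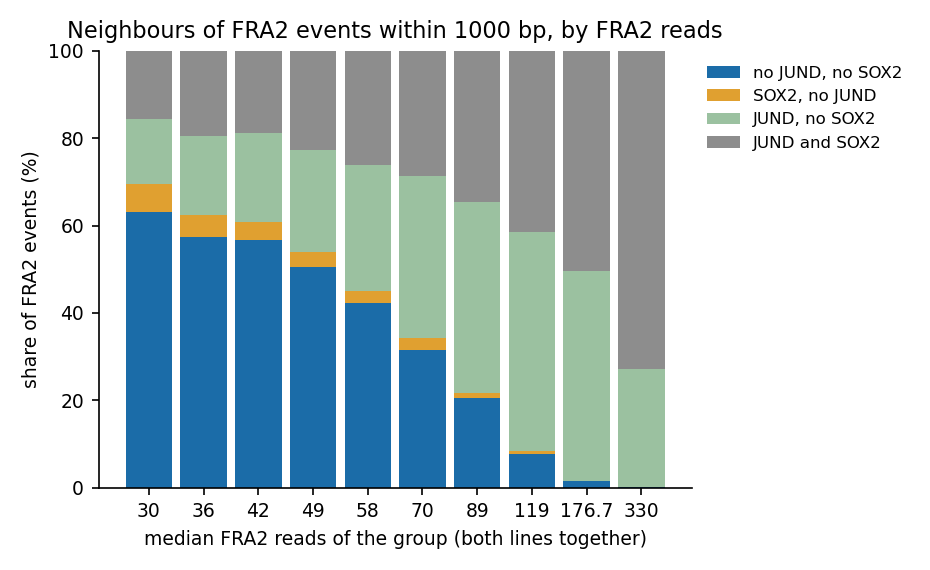
Share of FRA2 events (vertical axis, %) in each of 4 neighbour classes, for 10 equal groups of events ranked by reads (horizontal axis, median reads of the group over both lines). The class with no JUND and no SOX2 event within 1000 bp falls from 63.1% in the lowest group to 0.124% in the highest.

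How many JUND reads such a site could be expected to hold was read from strong shared sites. Among events of the highest read group with a JUND event within 100 bp (15631 events, 96.8% of that group), the median was 0.429 JUND reads per FRA2 read. At that ratio the median FRA2-only site would hold 18.9 JUND reads. The JUND table lists no event under 21 reads over both lines, and its median event has 54. By the same ratio 12879 FRA2-only sites (60.1%) would fall below that lowest listed value, and 228 (1.06%) would reach 54 reads or more. The estimate depends on the ratio, which rose as FRA2 reads fell. It was 0.572 in the next group, where 68.7% of events were shared, 0.84 in the one below (36.3%) and 1.09 in the lowest (19.5%). With 0.572 the median site would hold 25.2 JUND reads, and 29.1% of sites would fall below the lowest listed value. With 0.84 it would hold 37.0 reads and 1.01% would fall below. The 21 reads are the lowest listed sum over both lines, so a site above that value need not be listed. At the first ratio, 84.7% of sites would fall below 29 reads, the 5th percentile of the listed JUND events. Shared events in the lower groups had to hold enough JUND reads to be listed, and how many FRA2-only sites carry JUND below the listing cannot be told from these tables.

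Significance over control was lower than over all FRA2 events, and the deposited ratio of IP to control is not summarised here. The library behind the deposited control reads is not named in the file headers, and its link to the IgG samples is unknown. These control reads, scaled by the authors, had a median of 3.6 in Q7 and 4.1 in Q111 at FRA2-only sites, against 3.6 and 4.7 over all FRA2 events. The deposited −log10 q of the better line had a median of 4.73, against 7.68 over all events, 11.5 at events with JUND but no SOX2 and 13.6 at events with both proteins. A better-line value below 3 was found at 3399 sites (15.9%), against 8.90% of all FRA2 events. Control reads reached 40 in either line at 3 sites, all on chromosome 11 between positions 3051528 and 3064560.

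The comparison of the lines sets the FRA2 reads of the pooled Q111 library at these sites against those of the pooled Q7 library. FRA2 reads were called higher in Q111 at 6741 FRA2-only sites (31.5%) and higher in Q7 at 3822 (17.8%), while 10853 (50.7%) were not called. Over all FRA2 events 23.3% were called higher in Q111 and 21.3% higher in Q7, 44.6% together. A call needs a fold of at least 2 and an adjusted p below 0.05 from an exact binomial test of the read share, adjusted by Benjamini-Hochberg over all 64579 events. The median log2 fold (Q111 over Q7) was 0.38, with quartiles of -0.74 and 1.36, against 0.00 over all events. It was 0.47 at events with JUND but no SOX2, -0.45 at events with both and -1.15 at the 1688 events with SOX2 but no JUND. No test was made of these lists against each other. The median called site differed 3.55-fold where higher in Q111 and 3.26-fold where higher in Q7, close to the 3.55-fold and 3.36-fold over all FRA2 events. Differences of at least 4-fold were called at 2720 sites higher in Q111 (12.7%, against 9.76% of all events) and at 1299 higher in Q7 (6.07%, against 7.99%).

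The size of the lean towards Q111 varied with which events counted as neighbours and with the scaling. JUND events were marked present in Q7 more often than in Q111 (35209 and 28679), and SOX2 was mapped in Q7 alone. In an alternative chosen after seeing the data, with JUND events counted only where marked present in Q111, 27007 FRA2 events had no neighbour, their median log2 fold was 0.0054 (0.0059 above the other FRA2 events), and 6811 were called higher in Q111 against 6069 higher in Q7. With JUND events counted only where marked present in Q7, the median was 0.81 over 29521 events. Counting JUND events only where marked in both lines, also added after seeing the data, gave 0.48 over 35228 events. The part of the neighbour rule in the lean was not tested. Scaling by control reads, which moves the median of all FRA2 events to -0.36, gave the FRA2-only sites a median of 0.012, with 4575 called higher in Q111 and 5646 higher in Q7 (44.8% of calls higher in Q111, against 63.8% with the main scaling). The gap to the remaining FRA2 events, 0.49 on the log2 scale, is the same under every scaling factor by construction.

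The listing of events also shapes these folds. A line is marked present only from 20 reads and a −log10 q of 2 upwards, and every event is marked in at least 1 line. An event with fewer than 40 reads over both lines therefore cannot hold 20 in each. This applied to 8018 FRA2-only sites (37.4%), of which 5306 were called (66.2%). It applied to 20.8% of all FRA2 events, of which 66.0% were called, so at this depth the FRA2-only sites were called about as often as FRA2 events in general. Among the 13398 FRA2-only sites with 40 reads or more, 26.5% were called higher in Q111, 12.8% were called higher in Q7, and the median log2 fold was 0.25. All 51156 FRA2 events with as many reads gave 20.8%, 18.2% and 0.01. In the highest read group 85 of the 291 FRA2-only sites were called higher in Q111 (29.2%) and 9 higher in Q7 (3.09%), against 15.7% and 14.4% of all events in that group. Events with JUND but no SOX2 in that group gave 30.8% and 6.97%, while events with both proteins gave 4.85% and 19.9%.

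**Figure D2:**
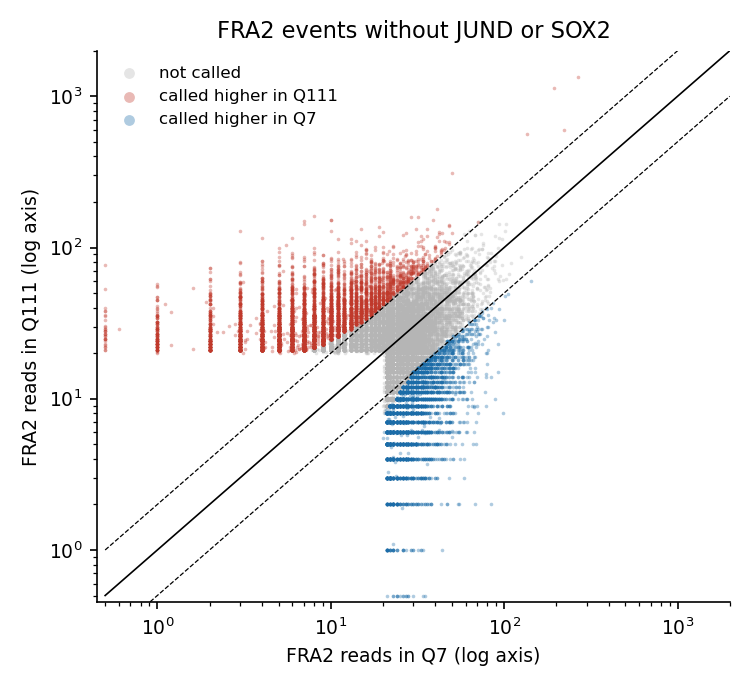
FRA2 reads in Q7 (horizontal, log axis) and in Q111 (vertical, log axis) at each of the 21416 FRA2-only sites, drawn at 0.5 where lower, with colours for calls, a solid line for equal reads and dashed lines for 2-fold differences. No site lies below 20 reads in both lines, and the 6741 sites called higher in Q111 outnumber the 3822 called higher in Q7.

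Few FRA2-only sites were marked present in both lines. The marks put 9588 (44.8%) in Q111 alone, 6774 (31.6%) in Q7 alone and 5054 (23.6%) in both, against 25.7%, 26.7% and 47.6% of all FRA2 events. With similar reads the gap was small. In the third of the 4 read groups, 71.8% of FRA2-only sites were marked in both lines. Events with JUND but no SOX2 gave 65.7% there, and events with both proteins 70.0%. In the second group the shares were 27.3%, 23.5% and 29.2%. Sites marked in both had median reads of 31 (Q7) and 34 (Q111) and a median log2 fold of 0.11, and 377 of them were called higher in Q111 and 148 higher in Q7 (10.4% together, against 21.2% of all events marked in both). Reads differ here too, with a median over both lines of 67 at these sites and 119 at all events marked in both. Control reads moved with the marks. Sites marked in Q111 alone had a mean of 4.03 control reads for Q7 and 3.84 for Q111, whereas sites marked in Q7 alone had 4.14 and 5.95, and the part of control reads in the marks was not tested. Of the sites marked in Q7 alone 45.8%, and of those marked in Q111 alone 33.6%, were not called different by reads. Over all FRA2 events with these marks the shares were 38.8% and 29.3%.

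The FRA2-only sites with the most reads lay on chromosome 11 close to the start of the assembled sequence. At position 3051528 Q7 gave 267 FRA2 reads and Q111 1331, beside 122.4 and 170.3 control reads. Position 3058339 had 193.6 and 1136.2 FRA2 reads with 178.6 and 152.6 control reads, and position 3064560 had 220.8 and 595.9 with 146.8 and 140.5. All 3 were called higher in Q111 (4.82-fold, 5.67-fold and 2.61-fold), but control reads were high in both lines, and at position 3058339 the −log10 q in Q7 was 0.57. Subtracting the control moved the log2 fold of the second from 2.50 to 5.99 and that of the last from 1.38 to 2.61. A JUND event lay 1047 bp from the second of them, just past the limit. A nearby site at position 3047381, with 8.1 and 6.4 control reads, gave 50.1 FRA2 reads from Q7 and 312.6 from Q111, a 5.99-fold difference (Clopper-Pearson interval of the read share 4.49 to 8.35).

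Apart from these, the strongest site was on chromosome 15 at position 73744254, with 136 reads from Q7 and 563 from Q111. That is 4.0-fold more in Q111 (3.32 to 4.87, exact binomial test, adjusted p = 1.22e-56), with 13.2 and 38.2 control reads. Its nearest JUND, SOX2 and FRA2 events lay 5.604, 5.583 and 5.589 kb away, all at about one place. On chromosome 8, position 119978630 gave 41 reads from Q7 and 180 from Q111, 4.21-fold more in Q111 (3.01 to 6.12), with 1.2 and 23.7 control reads. At position 80572723 of chromosome 11 Q7 gave 71 reads and Q111 148, a difference of 2.01-fold (1.51 to 2.72) that just passed the limit of 2. Position 85377188 of chromosome 15, with 71 and 147 reads and a 2.0-fold ratio (1.5 to 2.7), fell just short of it. Scaling by control reads ended the first of these calls (log2 fold 0.65), and subtracting control reads gave the second a call (1.22). Of the 8 sites with the most reads and fewer than 40 control reads, all had more reads in Q111, and 4 were called.

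Some strong FRA2-only sites differed little between the lines. On chromosome 8, position 126795043 gave 103 reads from Q7 and 142 from Q111 (1.33-fold, 1.03 to 1.74), and position 12019446 had 94 and 144 (1.48-fold, 1.14 to 1.95). On chromosome X, position 70812912 gave 101 reads from Q7 and 129 from Q111, a 1.24-fold ratio (0.946 to 1.62) whose interval includes 1. This site was 77.379 kb from the nearest JUND event and 90.818 kb from the nearest SOX2 event. Position 59573225 of chromosome 4 had 97 and 114 reads (1.14-fold, 0.861 to 1.51). With scaling by control reads the 2 last ratios turned slightly towards Q7, at log2 folds of -0.057 and -0.18. At position 57359733 of chromosome 3 Q7 had more reads, 125 against 87 (1.48-fold, 1.12 to 1.97), and JUND, SOX2 and another FRA2 event lay 1058, 1078 and 1068 bp away. None of these 5 sites reached the 2-fold limit.

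Sites called higher in Q111 with the most extreme intervals had almost no reads in Q7. At position 70327445 of chromosome 14 Q111 gave 77 reads and Q7 none (exact binomial test, adjusted p = 2.59e-21), with another FRA2 event 450 bp away. Taking 3 reads as the floor of the library, this is 24.9-fold higher in Q111, with a lower interval limit of 19.7. At position 113097878 of chromosome 5 Q111 gave 129 reads and Q7 gave 3, a 35.8-fold ratio (13.9 to 204.6), 218.168 kb from the nearest JUND event. Position 74058699 of chromosome 2 had 53 reads against 0 (17.1-fold by the same floor, lower limit 13.4). On chromosome 10, position 6567901 had 115 against 4 (24.9-fold, 10.6 to 103.9) and position 109464232 had 40 against 0 (at least 12.9-fold). Of these 6 sites, 3 lay more than 100 kb from any JUND or SOX2 event. The remaining one, at position 85793486 of chromosome 7, gave 149 reads from Q111 and 7 from Q7 (19.3-fold, 9.76 to 52.2), with a JUND event 2.528 kb away.

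Sites called higher in Q7 reached similar ratios with fewer reads. In both directions, the folds of sites with 1 to 4 reads in the lower line rest on those few reads, as their intervals show. At position 61378689 of chromosome 9 Q7 gave 84 reads and Q111 gave 2, a 34.9-fold ratio (11.6 to 363.9, exact binomial test, adjusted p = 1.53e-21). Position 71374491 of chromosome 18 had 68 against 2 (28.3-fold, 9.35 to 295.7), with a JUND event 1215 bp and a SOX2 event 1250 bp away. Position 93221407 of chromosome 5 had 44 against 1 (30.6-fold, 7.74 to 1835). The other 3 had no reads in Q111, and their folds take the same floor of 3 reads. The floor was used only where a line had no reads, so these folds cannot be ranked against ratios at 1 or 2 reads. Position 111490203 of chromosome 9 had 35 reads in Q7 (12.0-fold, lower limit 9.29). Position 78782389 of chromosome 13 had 34 (11.7-fold, lower limit 9.01) and position 45256544 of chromosome 17 had 30 (10.3-fold, lower limit 7.89). All 6 lay within 50 kb of a JUND event, as did 83.5% of all FRA2-only sites. Across all FRA2-only sites, 31 had no reads in Q7 and 16 had none in Q111, after rounding.

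Distances separated the sites from other binding by kilobases, in part by the rule, which leaves out events with JUND or SOX2 within 1000 bp. The nearest other FRA2 event lay at a median of 8.01 kb (quartiles 2.98 and 20.3 kb), the nearest JUND event at 12.7 kb (4.74 and 32.8 kb) and the nearest SOX2 event at 24.9 kb (8.50 and 68.4 kb). Over all FRA2 events the nearest other FRA2 event lay at 4.05 kb. FRA2 events close to a site shared with JUND are left out too, and the part of this in the difference was not tested. JUND was nearer than SOX2 at 15358 sites (71.7%), and another FRA2 event lay within 1000 bp of 1308 (6.11%). The numbers of listed events differ, with 64579 for FRA2 and 46583 for JUND over both lines and 26433 for SOX2 in Q7. The part of these numbers in the order of the distances was not tested. At 9139 sites (42.7%) the nearest JUND and the nearest other FRA2 event lay within 100 bp of each other, so that both distances pointed to one shared site. At 5767 (26.9%) the nearest JUND and SOX2 events likewise lay within 100 bp of each other. The JUND or SOX2 neighbour was more than 10 kb away at 11424 sites (53.3%), more than 100 kb at 1375 (6.42%) and more than 1000 kb at 54.

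**Figure D3:**
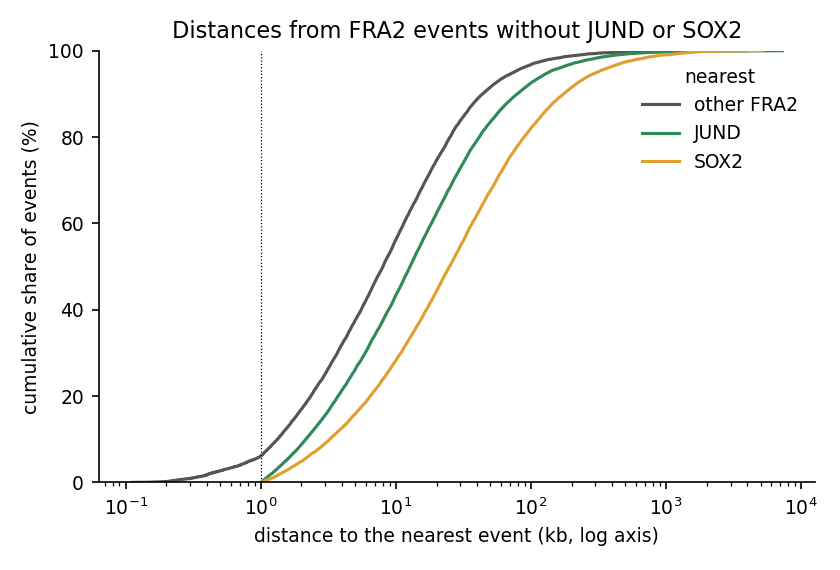
Cumulative share of the 21416 FRA2-only sites (vertical axis, %) by distance to the nearest other FRA2, JUND or SOX2 event (horizontal, kb, log axis), with a dotted line at the 1 kb limit. The median distances are 8.01, 12.7 and 24.9 kb, and the JUND and SOX2 curves start at the limit because the rule sets it.

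Values on either side of the 1000 bp limit are given for 3 sites each. Just outside it, position 126692005 of chromosome 3 gave 9 reads from Q7 and 25 from Q111, position 155413066 of chromosome 1 had 21 and 15, and position 61943090 of chromosome 10 had 38 and 77. Just inside it, and so left out, positions 49570779 and 53112955 of chromosome 11 had 3 and 36, and 12 and 22 reads, and position 61155805 of chromosome 6 had 7 and 33. The sites farthest from JUND and SOX2 were on chromosome X, where position 114884096 gave 2 reads from Q7 and 37 from Q111 and lay 3884 kb from the nearest SOX2 and 5422 kb from the nearest JUND event. Position 42444544, also on chromosome X, had 1 and 22 reads, so both were called higher in Q111 (14.5-fold each, with lower limits of 4.62 and 3.44). Position 100927105 of chromosome 8 had 18 and 46 reads and position 82446522 of chromosome 16 had 8 and 22, and both were called higher in Q111 but not with scaling by control reads. The fifth, position 15596717 of chromosome 15, gave 25 reads from Q7 and 31 from Q111 and was not called.

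The farther a FRA2-only site lay from JUND and SOX2 events, the higher was the median log2 fold. At 1 to 2 kb from the nearest JUND or SOX2 event the median log2 fold was 0.10 (2118 sites), at 5 to 10 kb 0.27 (3889), at 20 to 50 kb 0.50 (4251), at 50 to 100 kb 0.80 (1712) and beyond 100 kb 1.15 (1375). Calls higher in Q111 rose from 21.8% to 50.9% of sites between the nearest and the farthest of these bins, while calls higher in Q7 went from 19.0% to 15.1%. Median reads went from 23 to 13 in Q7 and from 24 to 26 in Q111, so the difference between bins lay mostly in the Q7 reads. Control reads moved too: the mean went from 4.50 to 3.64 in Q7 and from 5.53 to 3.21 in Q111, and their part in the result was not tested.

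The gradient appeared along the distance to SOX2 and along that to JUND, with no test between them. From 1 to 2 kb up to beyond 100 kb, the median log2 fold went from -0.15 to 1.15 by distance to SOX2, and from 0.15 to 1.02 by distance to JUND. Events with JUND but no SOX2 showed the same course by distance to SOX2, from -0.01 to 1.32. Within the lowest read group the FRA2-only sites went from -0.19 to 1.54, within the second from 0.05 to 0.70 and within the third from 0.27 to 0.59. Among sites marked present in both lines the medians were 0.09 nearest and 0.13 farthest, and these marks leave out most sites with large folds. Sites marked in Q111 alone went from 1.19 to 1.92, while those marked in Q7 alone went the other way, from -1.12 to -1.49, with calls higher in Q7 going from 50.7% to 65.4%. No site marked in Q111 alone was called higher in Q7, and none marked in Q7 alone was called higher in Q111. The marks thus set the direction, and these courses do not show that folds grew in each direction. Over all FRA2-only sites the first quartile went from -0.86 to -0.24, and calls higher in Q7 from 19.0% to 15.1%. The share marked in Q111 alone grew with distance. By distance to the nearest other FRA2 event the course was not monotonic: the median was 0.52 within 1 kb, 0.22 at 1 to 2 kb and 1.09 beyond 100 kb. Bins overlap widely, as the quartiles beyond 100 kb were -0.24 and 2.14. JUND events were marked more often in Q7 and SOX2 was mapped only there, and the part of this in the gradient was not tested.

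**Figure D4:**
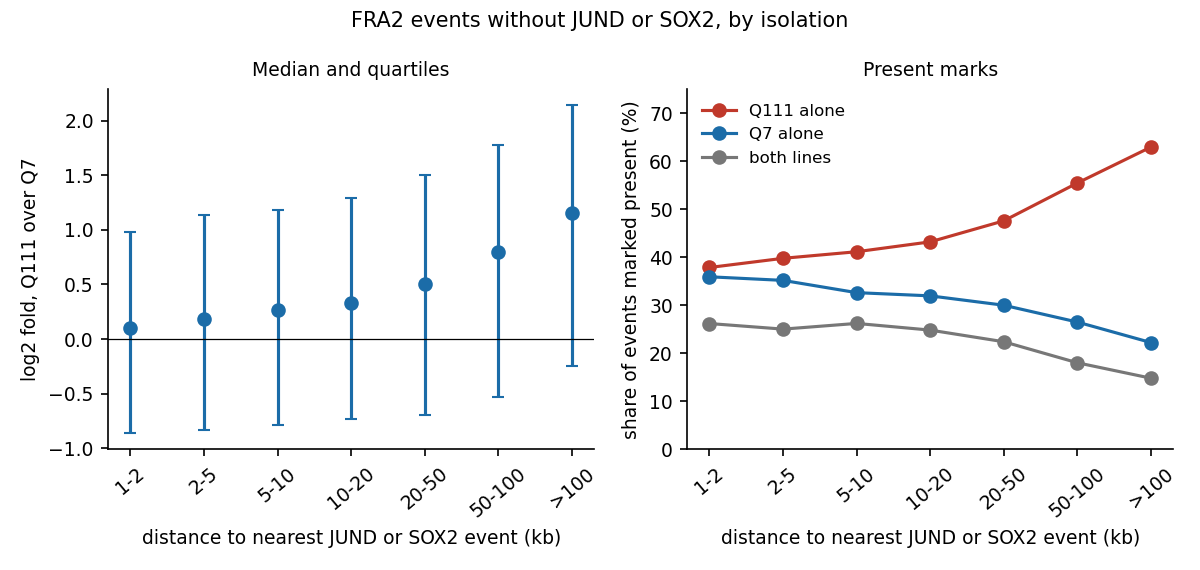
Left, median log2 fold (Q111 over Q7) of FRA2-only sites with quartiles as bars, and right, share of sites (%) marked present in Q111 alone, in Q7 alone or in both lines, by distance to the nearest JUND or SOX2 event (horizontal, kb). The median goes from 0.10 to 1.15 and the share marked in Q111 alone from 37.9% to 62.9%, while the quartile bars of all bins overlap.

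FRA2-only sites tended to follow the nearest FRA2 event on the same chromosome. Of sites with their nearest FRA2 event 1 to 20 kb away and that event bound by JUND, 1879 had a neighbour called higher in Q111. Of these sites 49.0% were called higher in Q111 and 8.20% higher in Q7. Where the neighbour was called higher in Q7 (1778 sites), 14% were called higher in Q111 and 34.8% higher in Q7, and where it was not called (5122 sites) the shares were 23.6% and 17.7%. The log2 folds of site and neighbour correlated with a Pearson r of 0.41 at 1 to 5 kb (4212 pairs), 0.33 at 5 to 20 kb (4567) 0.33 at 20 to 100 kb (2512) and 0.42 beyond 100 kb (298), with no steady decline. Spearman rho was 0.39, 0.31, 0.32 and 0.41. Between 2 FRA2-only sites that were neighbours, r was 0.42 at 1 to 5 kb (1348 pairs), 0.32 at 5 to 20 kb, 0.28 at 20 to 100 kb and 0.18 beyond 100 kb (317 pairs). All points share the same 2 libraries, and no p is attached to them.

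The class of the neighbour went with the fold as well. At the 5150 FRA2-only sites whose nearest FRA2 event had both JUND and SOX2, the median log2 fold was -0.05. It was 0.49 where that event had JUND alone (6517 sites) and 0.53 where it was another FRA2-only site (9199). Median reads were 44 in each of these sets. FRA2-only sites were the nearest FRA2 event for 43.0% of FRA2-only sites, while they made up 33.2% of all FRA2 events. The rule leaves out FRA2 events close to JUND or SOX2, and its part in this difference was not tested.

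Most FRA2-only sites stood singly. Counting consecutive sites with gaps of at most 10 kb and no other event between, 15844 (74.0%) stood alone and 5572 fell into 2552 runs of at least 2. Only 10 runs held 5 sites or more, and the 3 longest held 6 sites each. On chromosome 1 between positions 134242903 and 134267394, the 6 sites gave 21 to 73 reads from Q7 and 2 to 42 from Q111, and all leaned towards Q7 (median log2 fold -0.66). On chromosome 7 between positions 130471639 and 130490540, they gave 22 to 28 reads from Q7 and 2 to 23 from Q111, again all towards Q7 (median -1.06), and 3 were called. On chromosome 6 between positions 6162508 and 6181046, they gave 12 to 52.4 reads from Q7 and 27 to 43.8 from Q111, with 4 of 6 towards Q111. Within 2 of the 3 runs the sites thus went one way.

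The share of FRA2-only sites differed by chromosome. It was highest on chromosome X, with 569 of 1241 FRA2 events (45.9%, 43.1 to 48.6%), followed by chromosome 14 (39.1%) and chromosome 18 (39.0%), and lowest on chromosome 19, with 560 of 2236 (25%, 23.3 to 26.9%), and chromosome 15 (27.9%). Chromosomes with a high share had a lower median over all their FRA2 events: 56 reads on chromosome X and 69 on chromosomes 15 and 19. The FRA2-only sites themselves had medians of 44 reads on chromosome X, 46 on chromosome 15 and 45 on chromosome 19. They count in the median of all events, so share and median reads are not independent. Across the 20 chromosomes other than M, the rank correlation of share with median reads was -0.86, a description of chromosomes that share the same libraries. The site on chromosome M had 32.4 control reads in Q7 and 18.6 in Q111.

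On each of these 20 chromosomes the FRA2-only sites had a higher median log2 fold than the other FRA2 events, by 0.28 on chromosome 7 to 0.74 on chromosome 10. The other events pool classes that differ. Over all chromosomes the median was 0.47 with JUND but no SOX2, -0.45 with both proteins and -1.15 with SOX2 but no JUND. The first of these lies above the 0.38 of the FRA2-only sites, so the lean is not particular to them. The level moved with the chromosome. FRA2-only sites had medians of 0.64 on chromosome 6 and 0.62 on chromosome 14, but -0.01 on chromosome 17, where the other FRA2 events stood at -0.58. Chromosome 17 was also where calls were most even, with 185 sites higher in Q111 and 183 higher in Q7. Scaling by control reads lowers all these medians by 0.36, to below 0 on 8 of the 20 chromosomes (against 1 with the main scaling). The log2 ratio of Q111 to Q7 control reads at the sites ranged from -0.07 on chromosome X to 0.39 on chromosome 11.

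**Figure D5:**
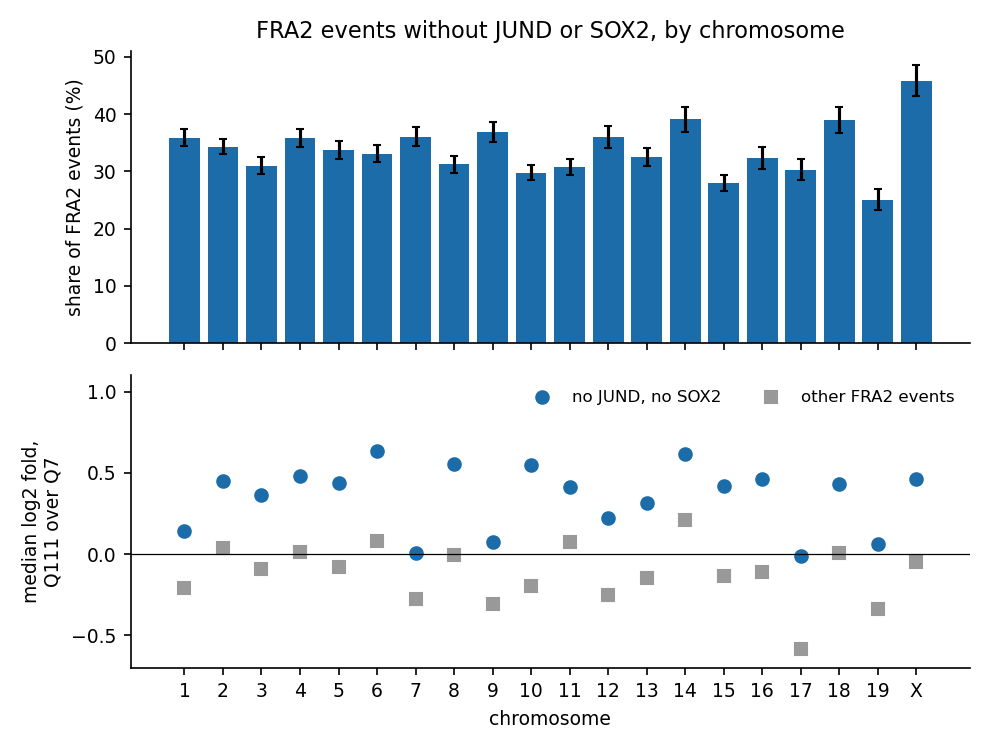
Top, share of FRA2 events that are FRA2-only sites (vertical axis, %, bars with 95% Wilson intervals) by chromosome, and bottom, median log2 fold (Q111 over Q7) of FRA2-only sites (circles) and of the other FRA2 events (squares). The share is highest on chromosome X (45.9%) and lowest on chromosome 19 (25%), and every circle lies above its square. The squares pool events with JUND but no SOX2 and events with SOX2, whose medians over all chromosomes differ in direction.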

How the data were processed

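Reads were aligned with Bowtie 0.12.7 to mm9, per the submitters' processing notes. The name GPS appears with the deposited tables, and the settings of the event caller were not given in the sources used here. Per the file headers, the deposited IP columns hold estimated counts of reads per event, unscaled, which were rounded for tests. The deposited control columns hold a signal (control reads scaled by the authors), and the headers do not name the library behind them. The deposited Fold column is a ratio of IP to control, and p-value and q-value are deposited as −log10. There were 12 value columns not used here. A JUND or SOX2 event within 1000 bp, ends included, removed a FRA2 event. Folds used a pseudocount of 0.5 reads and were scaled by the median log2 ratio of FRA2 events marked present in both lines (0.05). The test doubled the smaller binomial tail (scipy 1.17.1). In a simulation of the FRA2 table (64579 events), 171 of 200 events changed 4-fold were called in the right direction. It drew Poisson counts without added dispersion, marked every event present in both lines and applied no listing limit. It therefore checks the calculation and does not show how reliable the calls at FRA2-only sites are. Intervals (95%) cover counting error only, and PCR reads are not independent molecules. Intervals of shares treat events as independent draws, which events of the same libraries are not. Named sites are the 8 with most reads (plus those with 40 or more control reads), 6 per direction with the farthest intervals, 6 uncalled, 5 farthest and 3 on each side of the limit, and the 3 longest runs. The members, lists and rules were chosen with earlier results of these data known. No mm9 genome or annotation was used, so genes, genomic features and sequences of the sites are not given.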

Additional observations from a re-analysis of the deposited data

How the results depend on the processing

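No paired analysis was possible because each sample pools its replicates into 1 library. The median log2 fold of the FRA2-only sites stayed above 0 under all alternatives run, but came down to 0.012 with scaling by control reads and, in an alternative chosen after seeing the data, to 0.0054 with JUND events counted only where marked present in Q111. Other distance limits gave 0.25 (100 bp), 0.34 (500 bp), 0.40 (2000 bp) and 0.55 (10000 bp). It was 0.81 with JUND events marked in Q7, 0.48 with those marked in both lines (also added after seeing the data), 0.24 with SOX2 ignored, 0.42 unscaled, 0.32 with a pseudocount of 5 reads, 0.29 over sites with at least 50 reads, 0.45 with control reads subtracted and 0.41 over FRA2 events with a −log10 q of at least 3. The numbers of sites, of calls higher in Q111 and of calls higher in Q7 were 11424, 4173 and 1940 at 10000 bp, 8131, 2168 and 901 with at least 50 reads, and 35228, 12780 and 6106 with JUND marked in both lines. Calls higher in Q111 came to 12689 with JUND marked in Q7, and calls higher in Q7 to 6069 with JUND marked in Q111. A fold limit of 4 left 2720 and 1299 calls, and an assumed dispersion of 0.05 left 3524 and 1727, since both demand larger differences. The share in the highest read group was 1.80% in the main grouping, 0.124% with 10 groups and 2.15% with groups by Q7 reads. Leaving out each chromosome kept the median between 0.36 and 0.38. Of 36 named events, scaling by control reads reversed 3 uncalled ones, to log2 folds of -0.057 (chromosome X position 70812912), -0.18 (chromosome 4 position 59573225) and -0.10 (chromosome 15 position 15596717), and ended 4 calls. Where the cause of a change is not stated, the cause was not tested. Depth limits what the absence of JUND shows: the median site would hold 18.9 to 48 JUND reads by the ratios of the 4 read groups, and the table starts at 21. That value is the lowest listed sum over both lines, so a site above it need not be listed.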
